A study of Mus musculus with 36 samples.

Results

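The genes described here are 9 transcripts that mark the making of neurons and cell division in the adult brain: Eomes, Dcx, Sox11, Sox4, Neurod1, Igfbpl1, Draxin, Mki67 and Top2a. They were taken by symbol, whatever their values, from 24421 gene symbols in 4 deposited tables, and all 9 were present in each table. RNA sequencing of polyadenylated RNA from mouse hippocampus gave 36 libraries, 3 from females and 3 from males in each of 6 groups. C57BL/6 mice made up the aging arm: old mice of 18 months given a nanoligomer, old mice of 18 months labelled as controls, and young mice of 8 months. Mice of 4 months made up the transgenic arm: APP/PS1 mice given the nanoligomer, APP/PS1 mice labelled as controls, and littermates that did not carry the transgenes. The young mice and the littermates were labelled as controls as well. A nanoligomer is a short antisense molecule on a peptide nucleic acid backbone, and the title of the series speaks of lowering NF-κB and NLRP3. APP/PS1 mice carry human amyloid precursor protein and presenilin transgenes. The sources used here do not give the transgenes' promoter, or the dose and duration of treatment. The labels do not say what the control mice were given.

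In the adult dentate gyrus, stem cells with radial glia features give rise to dividing intermediate progenitors, which become neuroblasts, immature neurons and then granule cells. This output declines with age in rodents, and the cells concerned are a small part of the tissue. Outside the dentate gyrus, dividing cells in the hippocampus include oligodendrocyte precursors and microglia, and several of the immature neuron genes are also expressed at low level by mature neurons.

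Among the genes of the progenitor stage, Eomes encodes a T-box transcription factor of intermediate progenitors (GRCm38 chromosome 9, bases 118478212 to 118486132, plus strand). Dcx encodes a microtubule-associated protein of migrating and immature neurons (chromosome X, 143855842 to 143933311, minus strand). Sox11 (chromosome 12, 27334264 to 27342574, minus strand) and Sox4 (chromosome 13, 28948919 to 28953713, minus strand) encode SoxC transcription factors of newborn neurons. Neurod1, a basic helix-loop-helix factor needed for granule cell maturation, lies on chromosome 2 (79452521 to 79456751, minus strand). Igfbpl1, a gene of neuroblasts related to the insulin-like growth factor binding proteins, and Draxin, which encodes a secreted axon guidance protein, are both on the minus strand of chromosome 4, at 45809468 to 45826923 and at 148098437 to 148130698. Mki67 encodes the Ki-67 protein of cycling cells (chromosome 7, 135689784 to 135716361, minus strand), and Top2a encodes the DNA topoisomerase that untangles chromosomes before mitosis (chromosome 11, 98992943 to 99024189, minus strand). In the GENCODE annotation, Neurod1 overlaps Cerkl on the same strand, and Draxin overlaps Mad2l2 on the other strand. Sox4, Neurod1, Eomes and Mki67 each overlap a non-coding or unclassified gene on the other strand. Top2a overlaps small nucleolar RNA genes on both strands. Reads from overlapping genes may not be told apart in the deposited counts, since the strand setting of the counting is unknown here.

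The promoters of Mki67 and Top2a are shown because these genes varied together across libraries. Each line gives 250 bases before the start of the gene as RefSeq places it (GRCm38.p6), read on the minus strand from 5′ to 3′, at chr7:135716380-135716629 for Mki67 and chr11:99024190-99024439 for Top2a. Capitals mark CCAAT boxes (CCAAT, or ATTGG on the other strand) and cell cycle homology region letters (TTTGAA, or TTCAAA on the other strand).
Mki67: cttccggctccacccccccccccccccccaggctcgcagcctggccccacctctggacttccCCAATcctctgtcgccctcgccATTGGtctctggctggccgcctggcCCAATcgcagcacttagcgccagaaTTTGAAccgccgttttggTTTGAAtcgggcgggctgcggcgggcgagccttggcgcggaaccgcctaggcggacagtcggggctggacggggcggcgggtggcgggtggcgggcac
Top2a: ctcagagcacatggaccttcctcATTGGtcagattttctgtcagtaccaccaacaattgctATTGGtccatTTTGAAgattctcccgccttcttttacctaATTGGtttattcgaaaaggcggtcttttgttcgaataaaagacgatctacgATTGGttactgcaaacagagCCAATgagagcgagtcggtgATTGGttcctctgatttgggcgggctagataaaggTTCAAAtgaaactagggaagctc
The Mki67 window held 3 CCAAT boxes and 2 TTTGAA matches, and the Top2a window held 6 CCAAT boxes and 2 TTTGAA matches on either strand. No CCAAT match overlapped a TTTGAA match in these windows. Of 27025 promoter windows of this length, 34.5% held at least 1 CCAAT box, 16.3% at least 1 TTTGAA match and 66.0% at least 1 E-box (CANNTG). Promoters were found in the RefSeq table for 8 of the 9 genes. Sox11 was the only other of these with a TTTGAA match, and Neurod1 and Draxin had no CCAAT box in the window. These are matches of letters, not bound sites.

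Libraries held 27.6 M to 46.3 M reads on genes (M for 1000000), except APP/PS1 nanoligomer female 3, with 0.913 M. That library is left out below unless named. It held 1253 reads of Sox11, which is 1372 counts per 1000000 reads on genes (CPM), and no read of Neurod1, Draxin, Eomes or Mki67, where a count of 0 allows up to 3.28 CPM. All 15 mature granule cell markers had reads in each of the other 35 libraries. APP/PS1 female 1, young male 1 and APP/PS1 female 3 also stood apart in ways that bear on the genes. APP/PS1 female 1 held the highest level of 2720 of 21949 genes (12.4%), with 10 of 13 subventricular zone and 8 of 14 striatum markers. Young male 1 held that of 2344 genes (10.7%) and APP/PS1 female 3 that of 1506 genes (6.86%). The labels do not state that libraries of a group came from separate animals, so the p-values measure the spread between these samples.

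Per length of exon, Neurod1 was the most abundant of the 9 transcripts and Eomes and Top2a the least. The length-scaled level, RPKM (CPM per kilobase of exon), had a median over 35 libraries of 8.76 for Neurod1, 3.95 for Sox4, 2.53 for Dcx and 2.15 for Sox11. The medians were 0.319 RPKM for Igfbpl1, 0.289 for Mki67, 0.163 for Draxin, 0.0991 for Top2a and 0.0914 for Eomes. The 4 abundant genes were also the steadiest. Across libraries their CPM had a coefficient of variation between 20.6% for Sox4 and 31.1% for Neurod1, against 54.2% for Draxin, 100% for Mki67, 102% for Igfbpl1, 158% for Eomes and 170% for Top2a. Eomes had no read in 4 libraries, where a count of 0 allows between 0.0735 and 0.0837 CPM (counting error only).

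The 6 groups were set side by side on CPM, since the tables had been normalised separately, and neighbouring groups in the order of means overlapped for every one of the 9 genes. Dcx averaged 32.8 ± 6.41 CPM in old nanoligomer, 24.6 ± 6.94 in old and 27.1 ± 4.88 in young mice (SD, n = 6 each). In the transgenic arm it averaged 32.6 ± 5.24 CPM in APP/PS1 nanoligomer (SD, n = 5), 37.8 ± 8.73 in APP/PS1 and 31.0 ± 4.83 in littermates (SD, n = 6 each). Sox4 averaged 23.5 ± 3.93 CPM in APP/PS1 mice and 15.2 ± 2.39 CPM in old mice, the top and bottom of its order, and Sox11 had the same groups at its ends, with 23.5 ± 6.59 and 14.7 ± 2.0 CPM. Mki67 and Top2a were highest on average in APP/PS1 mice (6.52 ± 7.85 and 3.51 ± 5.44 CPM) and lowest in old nanoligomer mice (1.72 ± 0.838 and 0.566 ± 0.479 CPM). Eomes and Igfbpl1 were highest on average in young mice (3.04 ± 2.74 and 2.60 ± 2.14 CPM). These means carry an SD close to or above their own size in all but the old nanoligomer group for Mki67, and the plot of CPM by library shows the single libraries behind them.

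**Figure D1:**
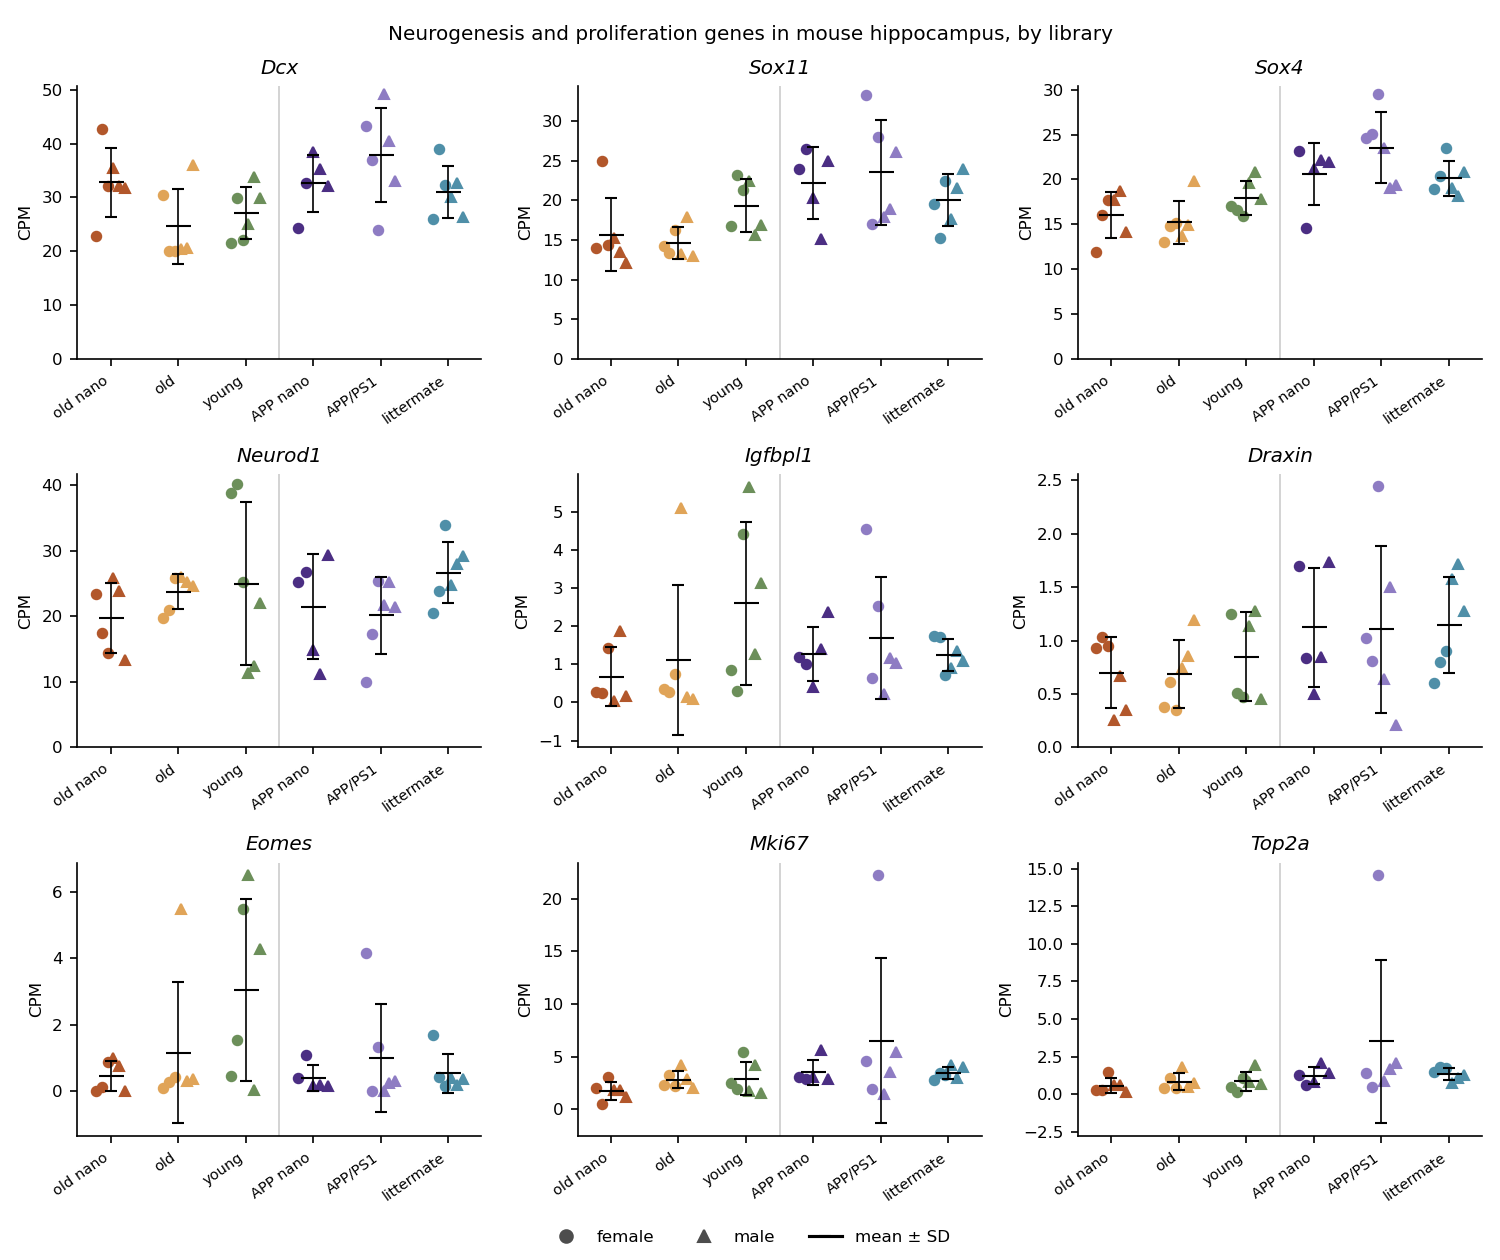
CPM (vertical axes) of the 9 genes in 35 libraries, by group (horizontal axes), with circles for females, triangles for males and a bar for the mean ± SD. Mki67 and Top2a show 1 library far above the rest, APP/PS1 female 3 at 22.3 and 14.6 CPM, and Eomes and Igfbpl1 show a few libraries between 3 and 7 CPM with most near 0.

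The comparison of old with young mice concerned the aging hippocampus. None of the 9 genes passed in limma (adjusted p under 0.05), where 0.0361% of 16626 genes passed. DESeq2 called 0.742% of genes and none of the 9, and edgeR 0.0361% and none of the 9. In bulk RNA, fewer cells of a type and less RNA per cell cannot be told apart. Sox11 had the smallest p. Its normalised counts (reads divided by a size factor per library) had a lowest, median and highest value of 527, 551 and 742 in old mice, and of 647, 762 and 924 in young mice. The groups overlapped at the upper end of the old mice and the lower end of the young mice. The log2 fold change was -0.38 ± 0.119 (SE), with a Benjamini-Hochberg adjusted p = 0.603 in limma. Its partner Sox4 had 527, 602 and 804 in old mice against 642, 706 and 862 in young mice. Here too the ranges overlapped, and the log2 fold change was -0.23 ± 0.0947 (adjusted p = 0.771 in limma). Before adjustment 2 of the 9 genes, Sox11 and Sox4, had p under 0.05, against 6.13% of all genes.

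Igfbpl1 and Eomes had the largest estimates with age and the widest spread. Igfbpl1 had 3.30, 12.4 and 203 normalised counts in old mice (lowest, median, highest) and 12, 89.3 and 213 in young mice. Old male 1, at 203, was far above the other 5 old libraries, which lay at 30.0 or below. The log2 fold change was -1.96 ± 0.912 (adjusted p = 0.813 in limma), and -2.65 without old male 1. Eomes had 3.75, 14.1 and 220 in old mice and 1.04, 116 and 245 in young mice, with old male 1 again highest among the old. Its log2 fold change was -1.48 ± 1.20 (adjusted p = 0.883 in limma). The age groups of both genes overlapped over nearly their whole range. Ependymal cilia markers moved with these estimates. All 13 were lower in old mice, with a median of -0.71 (log2), and their summed level was 36.9 to 134 CPM in old mice and 41.5 to 191 CPM in young mice, highest in old male 1 and young male 1. All 15 choroid plexus markers were lower as well (median -1.90, summed level 229 to 571 CPM in old and 253 to 5983 CPM in young mice). None of these markers passed in limma, and their part in the estimates was not tested. When marker scores for choroid plexus, striatum and thalamus entered the fit, the estimate of Eomes was -0.13, close to 0, and that of Igfbpl1 was -2.997. Those of Dcx (0.25), Mki67 (-0.85) and Top2a (-1.29) had the opposite sign to the values without them.

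For the other 5 genes the log2 fold change was -0.15 ± 0.169 for Dcx, 0.10 ± 0.267 for Neurod1, -0.26 ± 0.352 for Draxin, 0.09 ± 0.325 for Mki67 and 0.12 ± 0.523 for Top2a (SE, adjusted p between 0.917 and 0.983 in limma). The signs for Mki67 and Top2a were the opposite in edgeR and DESeq2. The 95% limits for Dcx ran from -0.51 to 0.22, so changes in either direction within them remain compatible with these libraries. Over the 9 genes the median was -0.23 and 3 estimates were positive, against a median of -0.00 and 48.6% positive over all genes tested. A wider list of 32 neuroblast and immature neuron genes, which holds 6 of the 9, had 22 negative and 10 positive estimates (median -0.15) with no member called. Intermediate progenitor genes had 6 of 11 negative estimates, mitotic genes 11 of 24 and DNA replication genes 11 of 20. Of the 16 lists, 2 had a called member with age. Gpr17, a receptor of newly formed oligodendrocytes, fell by 0.61 ± 0.0622 on the log2 scale (adjusted p = 0.00159 in limma), and Trem2, a microglial receptor, was higher by 0.76 ± 0.0950 (adjusted p = 0.0100 in limma).

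In old mice given the nanoligomer, against old mice labelled as controls, no gene passed in limma (0% of 16517). Before adjustment, 1192 genes (7.22%) had p under 0.05. DESeq2 called 0.0122% of genes, none of them among the 9, and edgeR 0%. Of the 9 estimates 3 were positive, against 49% over all genes. Dcx and Mki67 were the members with p under 0.05 before adjustment, with opposite signs. Dcx had 865, 1215 and 1618 normalised counts in treated old mice (lowest, median, highest) and 746, 780 and 1368 in old mice. Most treated libraries were above most control ones, although the ranges overlapped. Its log2 fold change was 0.43 ± 0.176 (adjusted p = 0.678 in limma), and 0.33 to 0.55 with any library left out. Neocortex markers moved with Dcx. All 13 were higher in treated old mice, with a median of 0.47, and their summed level was 622 to 1285 CPM in treated old and 462 to 1291 CPM in old mice. Of 15 mature granule cell markers, 13 were lower (median -0.40, summed level 521 to 836 CPM in treated old and 694 to 1056 CPM in old mice). Their part in the Dcx estimate was not tested.

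Mki67 had 19.7, 68.0 and 110 normalised counts in treated old mice and 77.1, 99.3 and 156 in old mice. The ranges overlapped, with female 2 the lowest of the treated libraries and female 3 the highest. Its log2 fold change was -0.84 ± 0.352 (adjusted p = 0.678 in limma), and -0.52 without treated female 2. Top2a had 5.71, 16.6 and 53.6 in treated old mice against 14.9, 23.4 and 68.4 in old mice, with overlapping ranges and a log2 fold change of -0.65 ± 0.537 (adjusted p = 0.772 in limma). Of 24 mitotic genes tested, these 2 included, 16 had negative estimates and 8 positive ones (median -0.17), and the one with the smallest p, Kif23, a kinesin of cell separation, was positive at 1.13 ± 0.320 (adjusted p = 0.678 in limma). Neurod1 averaged 744 ± 204 in treated old and 899 ± 108 in old mice (SD, n = 6 each), with a log2 fold change of -0.31 ± 0.161 (adjusted p = 0.686 in limma). Sox11 (0.06 ± 0.157), Sox4 (0.06 ± 0.120) and Draxin (-0.02 ± 0.437) had estimates near 0. Eomes (-1.21 ± 1.09) and Igfbpl1 (-0.28 ± 1.003) had limits that took in a change of 1 log2 unit or more in each direction.

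APP/PS1 mice were set against non-carrier littermates to ask what the transgenes changed at 4 months. None of the 9 genes passed in limma, where 0.0486% of 16475 genes passed. DESeq2 called 1.54% of genes and edgeR 0.0486%, none of them among the 9. Of the 9 estimates 5 were positive, against 50.3% over all genes. Sox4 had 722, 862 and 1066 normalised counts in APP/PS1 mice (lowest, median, highest) and 662, 726 and 858 in littermates. The ranges overlapped, and the log2 fold change was 0.22 ± 0.0935 (adjusted p = 0.447 in limma). It was the 1 member with p under 0.05 before adjustment, against 10.2% of all genes. Neurod1 had 340, 804 and 959 in APP/PS1 mice and 731, 964 and 1236 in littermates. APP/PS1 female 1 was far the lowest, and without it the log2 fold change was -0.25, against -0.44 ± 0.208 with it (adjusted p = 0.497 in limma). That library also had the highest summed level of striatum markers in its group, 3362 CPM, against 272 CPM in the lowest APP/PS1 library and 239 to 284 CPM in littermates. All 14 striatum markers were higher in APP/PS1 mice, with a median of 1.10 and none called. Without APP/PS1 female 3, 1 of them was called, as were 256 of 16433 genes. With the covariates for choroid plexus, striatum and thalamus markers, the Neurod1 estimate was 0.05.

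Dcx had 864, 1434 and 1834 in APP/PS1 mice against 926, 1140 and 1443 in littermates, with a log2 fold change of 0.27 ± 0.162 (adjusted p = 0.612 in limma). Summed neocortex markers had a median of 1046 CPM in APP/PS1 mice (578 to 1280) and 706 CPM in littermates (628 to 876). Their part in the Dcx estimate was not tested. Sox11 had an estimate of 0.21 ± 0.164 and Draxin one of -0.29 ± 0.505. Igfbpl1 (-0.07 ± 0.522) and Eomes (-0.62 ± 1.12) were positive in edgeR and DESeq2. The 32 neuroblast genes divided evenly, with 16 positive and 16 negative estimates. Among them, Prox1, the transcription factor of granule cell identity, had the smallest p and a log2 fold change of -0.89 ± 0.244 (adjusted p = 0.229 in limma). Of 15 mature granule cell markers, 13 were lower in APP/PS1 mice, with a median of -0.41 and none called. Without APP/PS1 female 3, 12 of the 15 were lower, and 2 were called lower and 1 higher. That fit called 256 of 16433 genes. It also called 3 of 20 radial glia genes and 2 of 14 pyramidal neuron markers lower. Of 13 neocortex markers 3 were called higher, and of 14 striatum markers 1. None was called in the remaining lists.

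The division genes of this comparison rested on 1 library. Mki67 had 54.2, 145 and 803 normalised counts in APP/PS1 mice (lowest, median, highest) and 97.5, 124 and 154 in littermates. Top2a had 18.7, 55.2 and 526 in APP/PS1 mice and 26.1, 48.8 and 66.4 in littermates. Both highest values were those of APP/PS1 female 3. The log2 fold change was 0.30 ± 0.502 for Mki67 and 0.48 ± 0.606 for Top2a with it (adjusted p = 0.887 and 0.841 in limma), and -0.19 and -0.11 without it. Mitotic genes were positive for 23 of 28 with that library (median 0.35) and for 11 of 25 without it (median -0.03). DNA replication genes were positive for 13 of 20 with it and 9 of 20 without it.

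APP/PS1 mice given the nanoligomer were set against control APP/PS1 mice to ask what treatment changed in the transgenic model, with 5 treated libraries. No gene passed in limma (0% of 16124), 477 genes (2.96%) had p under 0.05 before adjustment, and none of the 9 was among them. DESeq2 called 0.0436% of genes, none of them among the 9, and edgeR 0%. Of the 9 estimates 4 were positive, against 49.4% over all genes. The adjusted p of each of the 9 genes was 0.997 in limma. Dcx had 674, 883, 1103, 1027 and 904 normalised counts in the treated libraries, against a lowest, median and highest of 645, 1083 and 1390 in APP/PS1 mice. The treated values lay inside the range of the control APP/PS1 mice, with a log2 fold change of -0.21 ± 0.156. Top2a had 34.6, 15.6, 23.6, 59.5 and 39.7 in the treated libraries, against 14.2, 41.5 and 392 in APP/PS1 mice. Without APP/PS1 female 3 its estimate was -0.04, against -0.64 ± 0.722 with it. Mki67 had 84.2, 78.2, 88.4, 162 and 81.8 in the treated libraries, against 41.0, 109 and 599 in APP/PS1 mice. Its estimate was -0.26 ± 0.572 with APP/PS1 female 3 and 0.18 without it. Mitotic genes were negative for 26 of 29 with that library (median -0.45) and 19 of 25 without it (median -0.12). Here too the filter on the mean count was applied again, and the counts are not over the same genes. The comparisons with littermates and with treated mice share the 6 APP/PS1 libraries.

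Sox11 (-0.02 ± 0.171), Sox4 (-0.17 ± 0.152), Neurod1 (0.08 ± 0.309), Igfbpl1 (0.06 ± 0.645), Draxin (0.30 ± 0.534) and Eomes (0.36 ± 1.10) completed the set. When APP/PS1 nanoligomer female 3 was kept in, 7 of the 9 estimates had the opposite sign, and the median of all genes was -0.68. Choroid plexus markers were higher for 15 of 15 in treated APP/PS1 mice, with a median of 2.41 and none called. Their summed level was 236 to 5671 CPM in treated and 210 to 338 CPM in control APP/PS1 mice. Eomes had 4.27 to 29.3 normalised counts in treated and 0 to 108 in control APP/PS1 mice, with the highest value in APP/PS1 female 1. The part of choroid plexus tissue in the Eomes values was not tested.

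The treatment effects in the 2 arms share no library and were compared in 1 joint limma fit, in which 0% of 16384 genes passed and 713 had p under 0.05 before adjustment. No other tool was run on it. Dcx had the smallest p of the 9 genes. The effect in APP/PS1 mice minus that in old mice was -0.64 ± 0.251 on the log2 scale (adjusted p = 0.918 in limma), with 0.43 in old mice and -0.21 in APP/PS1 mice. The differences for the other genes had adjusted p between 0.918 and 0.999. The age and model of the mice cannot be told apart in this contrast.

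**Figure D2:**
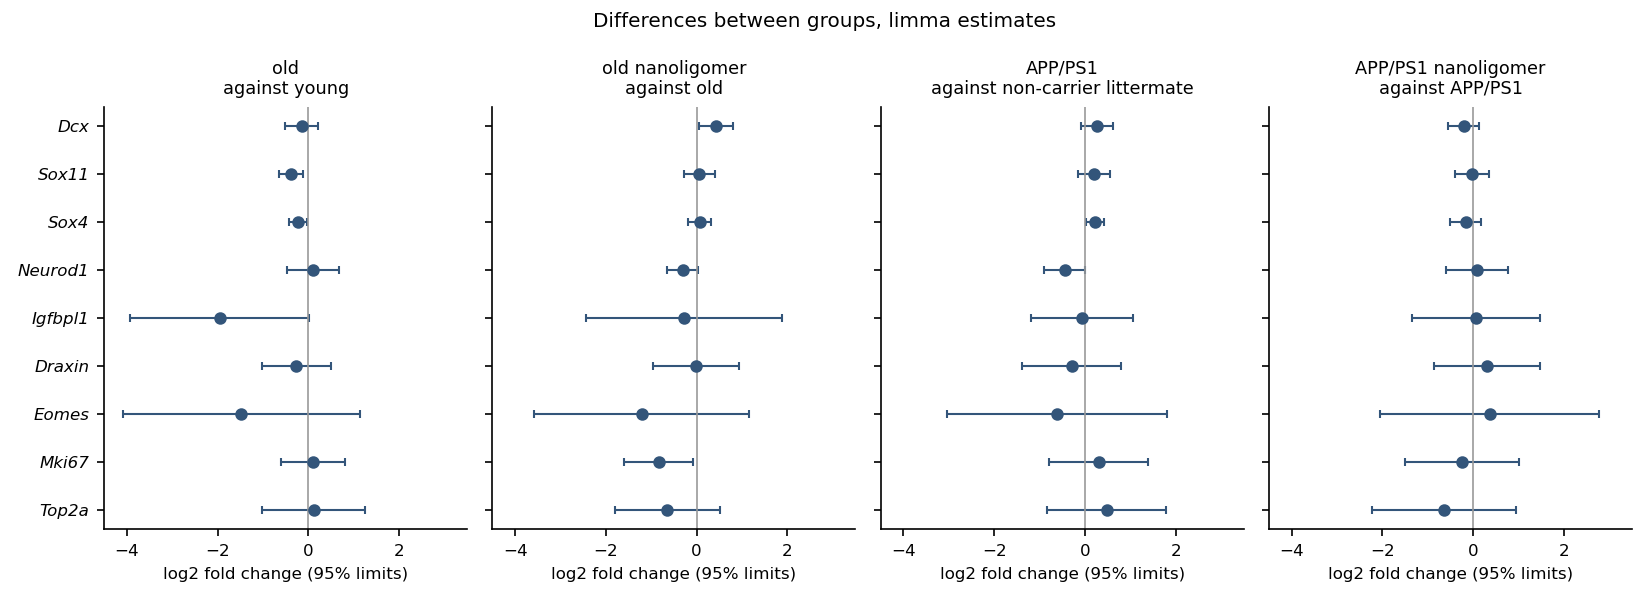
Log2 fold changes of the 9 genes (rows) from limma in 4 comparisons (panels), with points for the estimate and bars for 95% limits. The limits for Dcx, Sox11 and Sox4 are narrow and those for Eomes and Igfbpl1 wide, reaching from -4.08 to 1.13 for Eomes with age.

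In no comparison were the 2 groups of any of the 9 genes free of overlap, where 0.505%, 0.254%, 0.85% and 0.31% of all genes had groups that did not overlap, in the order of the comparisons above. Females and males were then compared within each contrast. Of the 9 genes, Neurod1 had the smallest p for a difference between the sexes with age, while Eomes had a larger and less precise one (2.43 ± 2.404). In females Neurod1 had 795, 836 and 1055 normalised counts in old mice and 1577, 1600 and 1022 in young mice. In males Neurod1 had 1042, 1044 and 1000 in old mice and 427, 513 and 889 in young mice. All old males were above all young males, while old females overlapped young females. The share of all genes so split was not computed, so this split cannot be read as particular to Neurod1. The Neurod1 estimate was -0.63 in females and 0.83 in males, a difference of 1.45 ± 0.352 (adjusted p = 0.983 in limma and 0.0877 in DESeq2).

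Draxin had opposite signs in the sexes in treated old mice. Females had 35.2, 39.3 and 34.4 normalised counts in treated old mice and 14.1, 22.7 and 13.1 in old mice. Males had 9.66, 25.4 and 13.3 in treated old mice and 27.6, 32.9 and 45.2 in old mice. Treated females lay above all control females, and treated males below all control males. The share of all genes with such splits within 1 sex was not computed. Neither these splits nor those that follow can therefore be read as a result about the genes. Other members had groups free of overlap within 1 sex as well. These were Sox11, Sox4 and Eomes in females with age, and Mki67 in treated old males. Dcx in APP/PS1 males against littermates and Neurod1 in treated APP/PS1 females (2 against 3 libraries) were the others. The Draxin estimate in treated old mice was 1.12 in females and -1.16 in males, a difference of -2.28 ± 0.623 (adjusted p = 0.914 in limma and 0.363 in DESeq2). No difference between the sexes passed in limma for any gene (0% in each comparison, with 728 to 840 genes at p under 0.05 before adjustment), while DESeq2 called 0.127% (21 genes) with age, 0.0182% (3 genes) in treated old mice, 0% in APP/PS1 mice against littermates and 0.149% (24 genes) in treated APP/PS1 mice, none of them among the 9.

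APP/PS1 female 3 had Mki67 at 22.3 CPM and Top2a at 14.6 CPM, from 828 and 542 reads. In the other 5 APP/PS1 libraries Mki67 lay between 1.45 and 5.39 CPM and Top2a between 0.502 and 2.04 CPM. These values were 6.33 and 10.4 times the median of those libraries. Other genes of mitosis were high in the same library. Pbk, a mitotic kinase, stood at 4.22 CPM against 0.0837 to 1.57, and Ube2c, which helps degrade cyclins at mitotic exit, at 3.84 CPM against 0.167 to 0.681. The library had the highest level of all 35 for 24 of 29 mitotic genes (82.8%, Mki67 and Top2a included) and for 10 of 20 DNA replication genes (50%), against 6.86% of all genes. The markers of several glial cell types were also high there. It was the highest library for 12 of 14 microglia markers (85.7%), 9 of 16 markers of oligodendrocyte precursors (56.2%) and 7 of 20 radial glia genes (35%). Summed microglia markers reached 1274 CPM in it, against 424 CPM in the lowest APP/PS1 library and 441 to 536 CPM in littermates, and C1qb, a complement gene of microglia, stood at 180 CPM against 32.8 to 39.8. Among the immature neuron genes the library was mixed. Sox4 (29.5 CPM) and Draxin (2.45 CPM) were at their highest of all 35 libraries in it, and Sox11 (27.9 CPM) was exceeded in APP/PS1 female 1 alone. Dcx, at 23.9 CPM, was the lowest of the 6 APP/PS1 libraries, and Eomes, at 1.34 CPM, was the second highest of them. It was the highest library for 1 of 12 intermediate progenitor genes (8.33%) and 4 of 32 neuroblast genes (12.5%), beside the same 6.86% of all genes. The summed level of the neuroblast genes, 4204 CPM, was the highest of the APP/PS1 group, whose median was 3737 CPM. The part of any cell type in the high Mki67 and Top2a of this library was not tested.

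**Figure D3:**
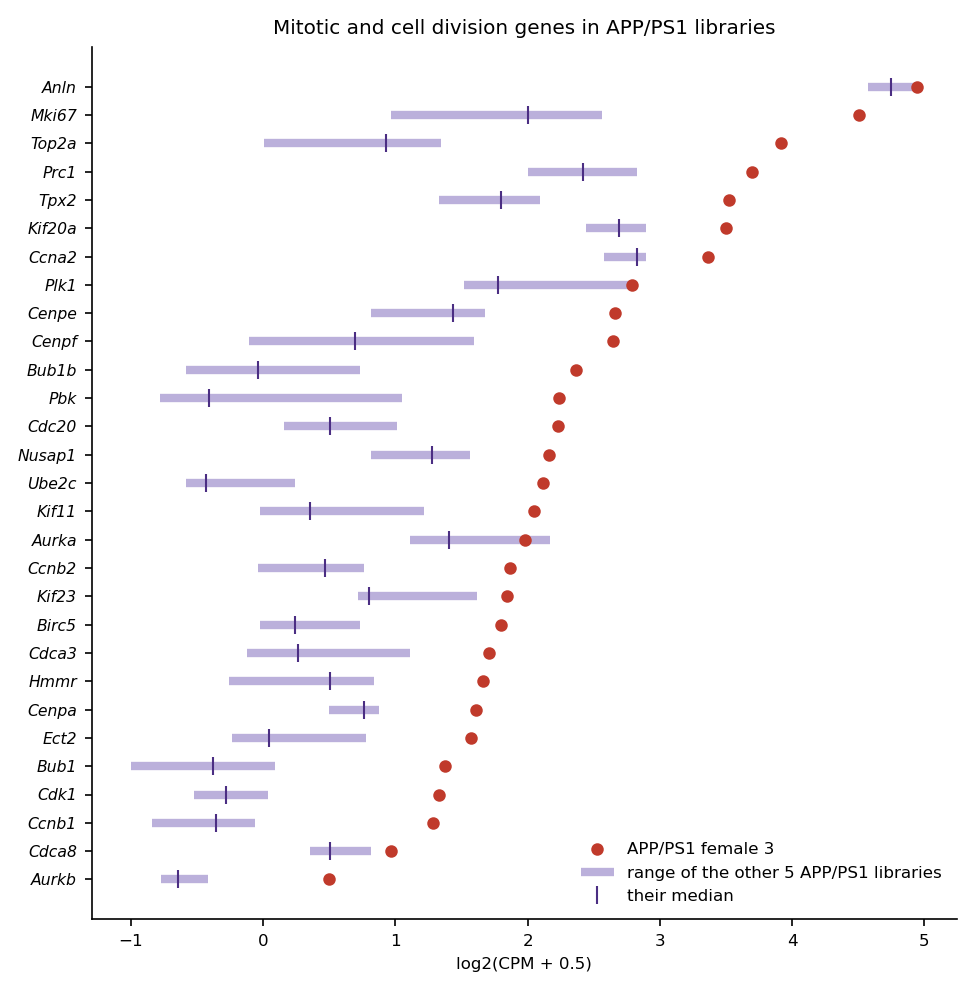
Level as log2(CPM + 0.5) (horizontal axis) of 29 mitotic and cell division genes (rows) in APP/PS1 female 3 (points) and in the other 5 APP/PS1 libraries (bars for the range, ticks for the median). All but Anln, Plk1 and Aurka were above the range of the other 5 libraries in female 3.

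Covariation was measured over 35 libraries on log2(CPM + 0.5), after the mean of each group and sex had been subtracted, with 36 pairs of genes. Of these, 2 pairs had a Benjamini-Hochberg adjusted permutation p under 0.05. Mki67 and Top2a had a Pearson r of 0.892 and a Spearman rho of 0.803 (permutation p = 4e-05 and 1e-04, adjusted p = 0.0014 and 0.0036, two-sided). The r was 0.789 without the 2 libraries farthest in Mki67, and 0.844 without APP/PS1 female 3. Igfbpl1 and Eomes had an r of 0.761 and a rho of 0.752 (permutation p = 0.00056 and 0.00031, adjusted p = 0.010 and 0.0056), and an r of 0.683 without the 2 farthest libraries. With the other intermediate progenitor genes the r was -0.24 for Igfbpl1 and -0.16 for Eomes. Igfbpl1 is a gene of neuroblasts and Eomes one of the stage before it, and the part of this order in their relation was not tested. Both were high in young male 1 (5.65 and 6.502 CPM), old male 1 (5.09 and 5.49 CPM), young female 3 (4.41 and 5.47 CPM), young male 3 (3.12 and 4.27 CPM) and APP/PS1 female 1 (4.55 and 4.16 CPM).

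**Figure D4:**
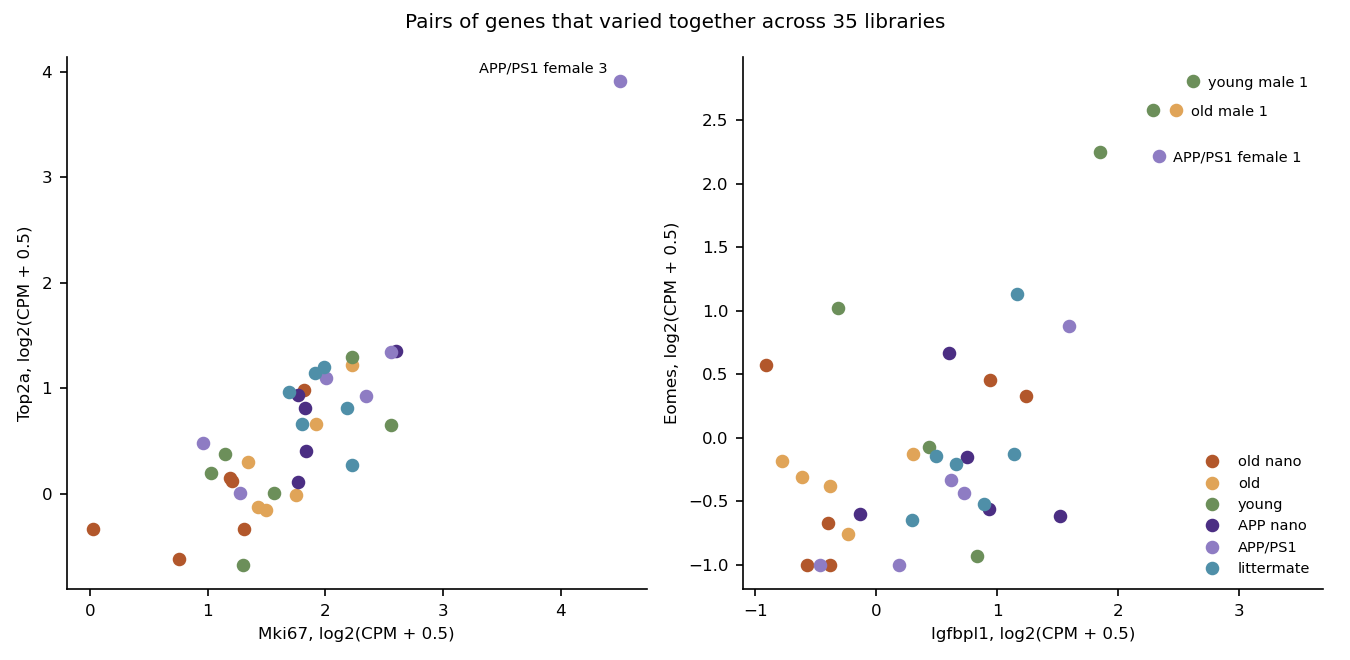
Levels as log2(CPM + 0.5) of Mki67 and Top2a (left) and of Igfbpl1 and Eomes (right), 1 point for each of 35 libraries, coloured by group. Mki67 and Top2a are high together, with APP/PS1 female 3 at the upper end, and Igfbpl1 and Eomes are high together in the same few libraries.

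The 6 genes of immature neurons did not form such a block. Dcx and Sox11 had an r of -0.04, Sox11 and Sox4 one of 0.05, Dcx and Sox4 one of 0.16 and Sox11 and Neurod1 one of 0.13, with adjusted p between 0.82 and 0.95. The largest r among them was 0.41, for Sox4 and Draxin (adjusted p = 0.25). Dcx and Mki67 had an r of -0.51 (adjusted p = 0.33). The 8 genes of at least 1 CPM with the highest mean r to these 6 genes were Cntrl, Filip1, Tmem100, Zswim3, Dhx32, Ano6, Fabp7 and Hey2, with a mean r between 0.281 and 0.297 over 35 libraries. Their r to single members differed, as for Fabp7, a fatty acid binding protein of radial glia and astrocytes, at 0.75 with Sox11 and -0.16 with Dcx.

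Each gene was also set against scores of 16 marker lists, with the 9 genes left out of the lists, which made 144 relations. Top2a and Mki67 varied with the mitotic list, with an r of 0.866 and 0.801 (rho 0.696 and 0.640, adjusted p = 0.0097 and 0.0098 for r). Without APP/PS1 female 3 the r was 0.769 and 0.709, and without the 2 farthest libraries 0.653 and 0.587. Top2a also varied with DNA replication genes (r 0.830, rho 0.643, adjusted p = 0.043 for r, r 0.572 without the 2 farthest libraries). With microglia markers the r was 0.753 for Top2a and 0.631 for Mki67 (adjusted p = 0.15 and 0.26 for r). The rho was 0.579 for Top2a and 0.494 for Mki67 (adjusted p = 0.048 and 0.087 for rho), so the Top2a relation passed by rank and not by r. Without APP/PS1 female 3 the r was 0.565 and 0.420, and without the 2 farthest libraries 0.501 and 0.327. Sox11 varied with the other neuroblast genes (r 0.670, rho 0.693, adjusted p = 0.037 for r, r 0.605 without the 2 farthest libraries). It was the only one of the 9 to pass with that list.

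Eomes and Igfbpl1 varied most with ependymal cilia markers, genes of the ciliated cells that line the ventricles. The r was 0.800 for Eomes (rho 0.715, adjusted p = 0.0098 for r) and 0.760 for Igfbpl1 (rho 0.712, adjusted p = 0.0097 for r), and 0.705 for each without the 2 farthest libraries. Eomes had an r of 0.656 with genes of the subventricular zone lineage (adjusted p = 0.037 for r and 0.061 for rho) and of -0.16 with the other intermediate progenitor genes (adjusted p = 0.71). Young male 1, the highest library for both genes, was the highest of 35 for 12 of 13 ependymal markers and for 12 of 13 thalamus and habenula markers. Picked after the values were seen, the gene nearest to Eomes was Zic4, a zinc finger factor, with an r of 0.907 over 35 libraries. Next came Ebf3, a transcription factor, with 0.891.

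Dcx varied against mature granule cell markers and radial glia genes, and with neocortex markers. Its r was -0.709 with mature granule cell markers (rho -0.682, adjusted p = 0.0097 for r), -0.639 with radial glia genes (rho -0.670, adjusted p = 0.0097) and 0.645 with neocortex markers (rho 0.697, adjusted p = 0.039). Without the 2 farthest libraries these were -0.659, -0.582 and 0.560. With pyramidal neuron markers the r of Dcx was -0.593 (rho -0.580, adjusted p = 0.066 for r and 0.039 for rho). With the other neuroblast genes the r of Dcx was -0.45 (adjusted p = 0.28). Neurod1 varied against striatum markers (r -0.726, rho -0.666, adjusted p = 0.011 for r, r -0.641 without the 2 farthest libraries), and had an r of 0.642 with CA1 and CA3 pyramidal neuron markers (rho 0.605, adjusted p = 0.058 for r and 0.048 for rho). Its r with mature granule cell markers was 0.557 (rho 0.533, adjusted p = 0.058 for r and 0.084 for rho). Sox4 and Draxin had no relation to a list with adjusted p under 0.05. Tissue makeup at dissection was not measured, and its part in these relations was not tested.

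**Figure D5:**
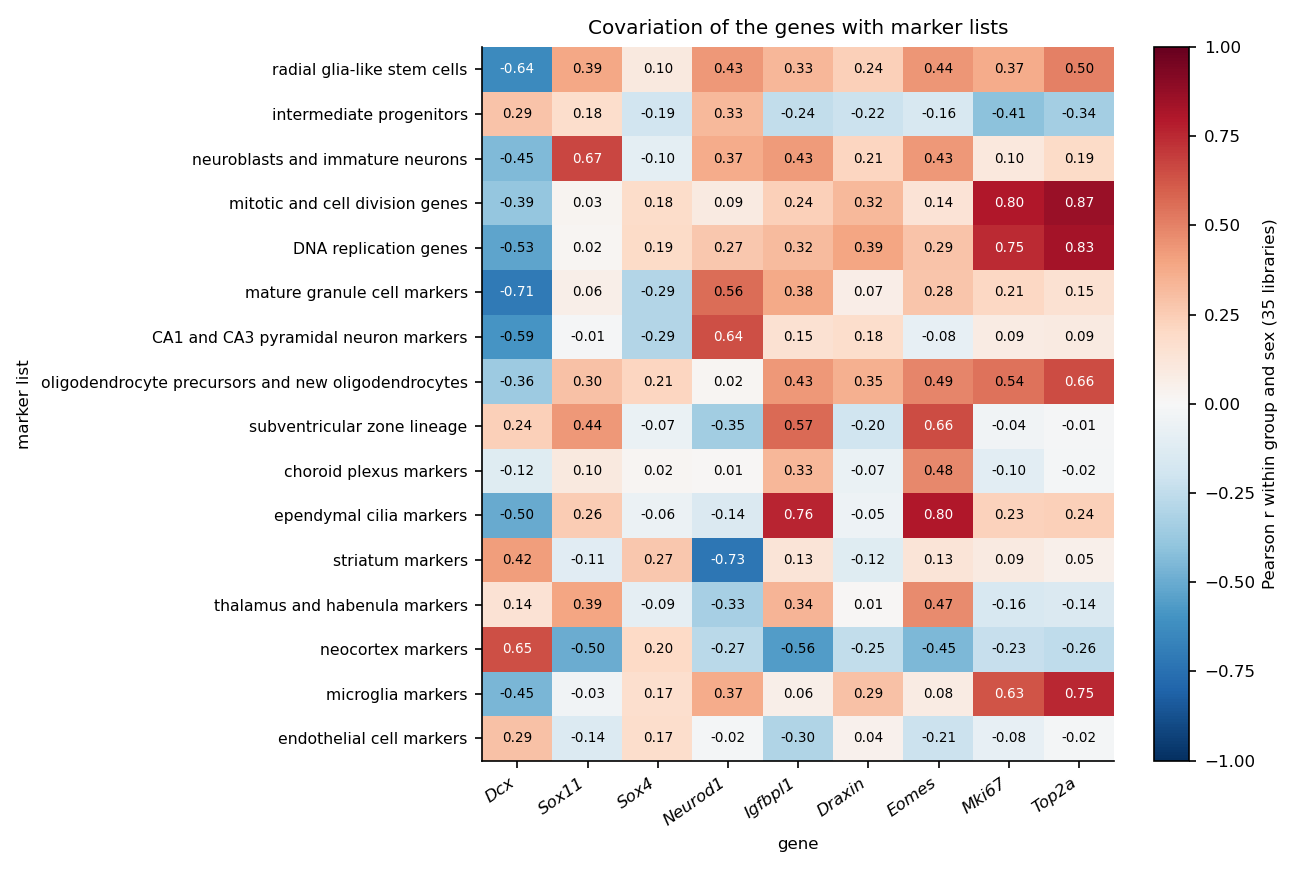
Pearson r (colour and number in each cell) between each of the 9 genes (columns) and 16 marker list scores (rows) within group and sex over 35 libraries. Dcx is negative with granule cell markers at -0.71, Eomes and Igfbpl1 are positive with ependymal markers at 0.80 and 0.76, and Mki67 and Top2a with mitotic genes at 0.80 and 0.87.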

How the data were processed

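The deposited values were normalised counts per gene symbol (a signal scaled by size factors) in 4 tables of 12 libraries, made by the authors with STAR and DESeq2 on mm10 per the submitters' processing notes, with versions, counting tool and strand setting not given in the sources used here. In a column name, treated APP/PS1 male 3 differs from its title in 1 letter. Old and APP/PS1 libraries appear in 2 tables, with the same recovered reads. Each value was a whole multiple of 1 step per library to within 0.001 reads, in 100% of values, and the recovered reads gave depth, CPM and RPKM (exon lengths from GENCODE vM21). Groups were compared with limma 3.58.1 in R 4.3.3 on log2(normalised count + 1), which understates changes of low genes, with sex as a term, an intensity trend, genes with a mean of at least 10, and Benjamini-Hochberg adjustment over all genes at 0.05. All 9 genes passed that filter in every table. Alternatives were pseudocounts of 0.5 and 5, no filter or a mean of at least 50, scaling by TMM, edgeR 4.0.16 and DESeq2 1.42.0 on the recovered reads, no sex term, library weights, a replicate block, marker covariates, and leaving out each library. Covariation used Pearson and Spearman correlations of residuals of log2(CPM + 0.5) from the mean of group and sex, with p from 100000 permutations within group and sex, which were added after a plan to describe r alone. List scores (mean residuals of members of at least 0.1 CPM, without the 9 genes) were added in the same way, and values without APP/PS1 female 3 were chosen after seeing the data. The 9 genes are named throughout, and from each of 16 lists up to 4 called genes, or the 1 with the smallest p. Genes named from APP/PS1 female 3 were chosen after their values were seen. Scripts were tested on simulated data. The genes and lists were chosen with earlier results of these data known. Promoters came from RefSeq.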

Additional observations from a re-analysis of the deposited data

Results flagged for a closer look

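Some libraries stood far from the rest of their group. In 54 groups of 1 gene and 5 or 6 libraries, 12 held a library whose gap to its nearest neighbour was large for the range of the group. Chance gives about 1 in 20 for values with a normal distribution. The CPM of low genes such as Eomes and Top2a were skewed, and some of the 12 fall on genes that varied together. The 12 therefore cannot be read against that rate. In old nanoligomer mice, Sox11 reached 24.9 CPM in female 2 (12.1 to 15.3 in the others), and Top2a reached 1.47 CPM in female 3. In old mice, Sox4 reached 19.8 CPM in male 3, and male 1 had both Igfbpl1, at 5.09 CPM, and Eomes, at 5.49 CPM, above the others. In APP/PS1 nanoligomer mice, female 2 had a low Sox4, at 14.6 CPM, and a high Eomes, at 1.09 CPM, while Mki67 reached 5.58 CPM in male 2. In APP/PS1 mice, Eomes reached 4.16 CPM in female 1, and female 3 had Mki67 at 22.3 CPM and Top2a at 14.6 CPM. In littermates, Eomes reached 1.69 CPM in female 1. Eomes accounts for 4 of the 12. Draxin in treated old mice differed between the sexes by -2.28 on the log2 scale (male minus female). All 3 treated females were above all control females and all 3 treated males below all control males. The share of all genes with such splits was not computed. The difference did not pass in limma (adjusted p = 0.914).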

How the results depend on the processing

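No setting called any of the 9 genes. Of 849 re-estimates, 763 kept the direction and 86 did not, with adjusted p between 0.114 and 1. Counts of called genes moved. With age, 6 became 123 in DESeq2, 14 with library weights, 1 with marker covariates and 4 to 11 with 1 library left out (11 without old female 1). In treated old mice, 0 became 2 in DESeq2. In APP/PS1 against littermates, 8 became 253 in DESeq2, 548 with library weights, 4 with covariates and 6 to 256 with 1 library left out (256 without APP/PS1 female 3, 21 without APP/PS1 female 1). In treated APP/PS1 mice, 0 became 7 in DESeq2 and 1 with no filter. DESeq2 called 21, 3 and 24 sex differences in the age and both treatment comparisons, against 0 in limma. Equal replicate numbers did not pair libraries: correlations of same-numbered libraries ran from -0.25 to 0.29. With the replicate block, the age count was 1 and the estimates of Sox11 (0.00676) and Mki67 (0.18) in treated APP/PS1 mice changed sign, with the values found without APP/PS1 female 3, which had no treated partner. Other sign changes follow, as log2 fold changes. With age, covariates gave 0.25 for Dcx, -0.85 for Mki67 and -1.29 for Top2a, library weights -0.20 for Neurod1 and -0.00825 for Top2a, and edgeR and DESeq2 -0.0250 and -0.0251 for Mki67 and -0.0112 and -0.0099 for Top2a. In treated old mice, library weights gave -0.12 for Sox11, 0.52 for Igfbpl1 and 0.0806 for Draxin, and edgeR and DESeq2 0.0141 and 0.0110 for Draxin. In APP/PS1 against littermates, covariates gave 0.0498 for Neurod1, weights -0.21 for Mki67, and edgeR and DESeq2 0.21 and 0.21 for Igfbpl1 and 0.32 and 0.25 for Eomes. In treated APP/PS1 mice, covariates gave 0.11 for Sox11 and -0.14 for Neurod1, weights -0.29 for Neurod1 and 0.0220 for Mki67, edgeR and DESeq2 -0.0481 and -0.0337 for Igfbpl1 and -0.69 and -0.63 for Eomes, no sex term -0.0130 for Igfbpl1, and a pseudocount of 5 -0.0883 for Eomes. Keeping in treated female 3 gave 0.0440 for Dcx, 0.84 for Sox11, 0.44 for Sox4, -1.44 for Neurod1, -0.58 for Draxin, -0.36 for Eomes and 0.49 for Top2a. In the contrast of treatment effects it gave 0.77 for Sox11, 0.38 for Sox4, -1.13 for Neurod1, -0.56 for Draxin and -0.55 for Mki67, and a pseudocount of 5 gave -0.081 for Top2a. With 1 library left out, estimates that changed sign ranged as follows. With age, Mki67 ran from -0.0541 to 0.32, Neurod1 from -0.0784 to 0.23 and Top2a from -0.26 to 0.38. In treated old mice, Draxin ran from -0.21 to 0.24, Igfbpl1 from -0.84 to 0.535 and Sox11 from -0.0822 to 0.15. In APP/PS1 against littermates, Draxin ran from -0.61 to 0.14, Eomes from -1.34 to 0.25, Igfbpl1 from -0.39 to 0.32, Mki67 from -0.19 to 0.60 and Top2a from -0.11 to 0.94. In treated APP/PS1 mice, Draxin ran from -0.0859 to 0.58, Eomes from -0.43 to 0.92, Igfbpl1 from -0.38 to 0.36, Mki67 from -0.59 to 0.18, Neurod1 from -0.12 to 0.29, Sox11 from -0.12 to 0.0734 and Sox4 from -0.23 to 0.0161. The causes were not tested. Eomes, Igfbpl1, Draxin and Top2a rested on 0 to 542 reads a library, which limits what could be detected.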
